A study of Saccharomyces cerevisiae with 12 samples.

Results

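AQY2, YLL053C, BSC1 and SFG1 were the transcripts of budding yeast, Saccharomyces cerevisiae, that lay furthest below time 0 from 100 to 180 min after hydrogen peroxide. These 4 genes of the 5449 with a named probe set were picked on that fall, as its largest cases that do not belong to a better known gene family. The late peroxide arrays and the time 0 arrays therefore chose them, and the distance between those groups is given here as a description without a test. Cells in mid-log growth in YPD, a rich glucose medium, at 25 °C received methyl methanesulfonate (MMS, 0.1%), which alkylates DNA bases, or H2O2 (0.3 mM), an oxidant. Each course held 1 array at 0, 30, 60, 100, 140 and 180 min, 12 arrays in all. For each stress the 30 and 60 min arrays are called the early window here (n = 2) and the 100, 140 and 180 min arrays the late window (n = 3). Time 0 is the pair of 0 min arrays, 1 from each course (n = 2). No repeat culture of any time point is labelled, so the spread within a window is the spread between sampling times. The strain is not given in the sources used here.

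The 4 genes touch the water channels and the surface of the cell. Aquaporins are membrane pores that let water, and not ions, cross the plasma membrane, and yeast carries AQY1 and AQY2. In the reference strain S288C the AQY2 reading frame is interrupted, and YLL053C is the neighbouring open reading frame that continues it in some other strains, where the pair forms a single aquaporin gene. BSC1 is an open reading frame of unknown function that resembles the flocculin Flo11, a cell surface protein that makes cells stick to each other and to surfaces. It is named for a gene layout that would allow translation to run through a stop codon. SFG1 encodes a nuclear protein, a putative transcription factor, that is needed for superficial filamentous growth, in which cells stay attached in chains on top of the agar.

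Each gene was read by 1 probe set, with systematic names YLL052C (AQY2) and YLL053C on chromosome XII, YDL037C (BSC1) on chromosome IV and YOR315W (SFG1) on chromosome XV. In the S288C assembly R64 the AQY2 and YLL053C reading frames overlap on the same strand. Which part of each frame the probes cover is not given in the sources used here, so shared signal between them cannot be told apart from shared transcription. Values are log2 probe set signals, in which a step of 1 is a 2-fold difference. The signal of BSC1 was low, with a mean of 3.50 over the 12 arrays and 2.5% of genes below it, and SFG1 (6.81) had 12.2% of genes below it. AQY2 and YLL053C were brighter, with means of 8.25 and 9.20. The table used here carries no detection calls, so whether BSC1 was above background late in either course is not known. RNA came from whole cultures, in which fewer cells carrying a transcript and less of it per cell cannot be told apart.

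**Figure D1:**
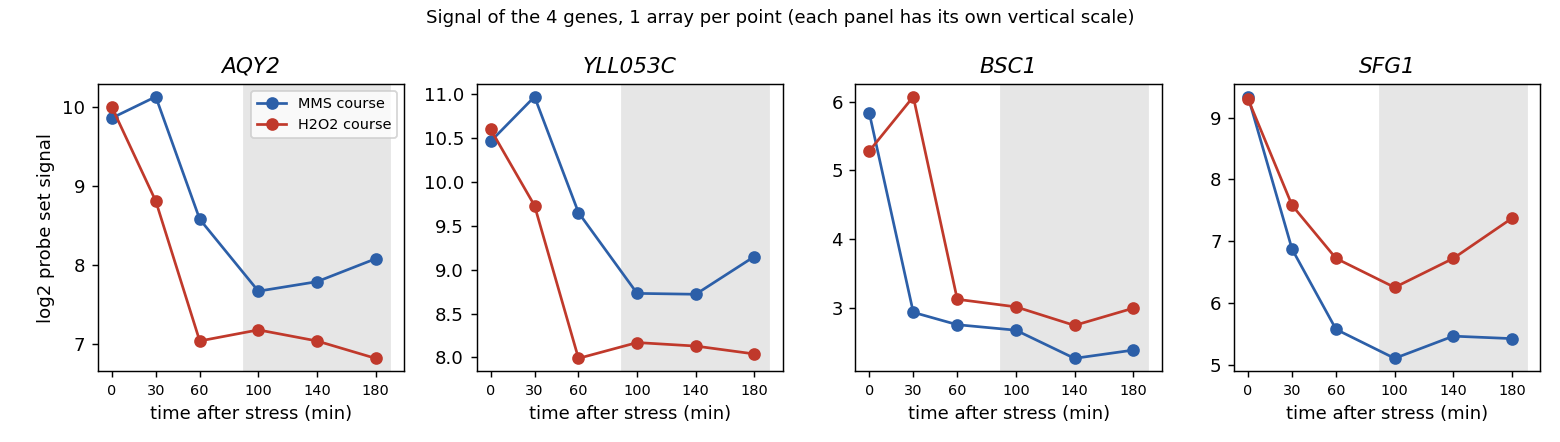
Log2 probe set signal (vertical axis, own scale per gene) against time after stress in min, with 1 array per point, MMS in blue and H2O2 in red, and the late window shaded. AQY2 and YLL053C were highest at 30 min of MMS, BSC1 was highest at 30 min of H2O2, and SFG1 was highest at 0 min in both courses.

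AQY2 was low from 60 min of peroxide on. In the MMS course its log2 signals were 9.86, 10.13, 8.58, 7.67, 7.79 and 8.08 at 0, 30, 60, 100, 140 and 180 min. In the H2O2 course they were 10, 8.81, 7.04, 7.18, 7.04 and 6.82 at the same times. The signal was thus still above both time 0 arrays at 30 min of MMS, whereas at 30 min of H2O2 it already lay below them. It was lowest of all 12 arrays at 180 min of H2O2, the last time sampled.

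YLL053C had a like course. Its log2 signals were 10.46, 10.97, 9.65, 8.73, 8.72 and 9.15 from 0 to 180 min of MMS. They were 10.6, 9.73, 7.99, 8.17, 8.13 and 8.04 from 0 to 180 min of H2O2. The lowest array was 60 min of H2O2 and the highest 30 min of MMS. Relative to the time 0 mean, AQY2 lay lower than YLL053C on 10 of 10 stressed arrays, by 0.24 to 0.62 on the log2 scale.

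BSC1 was low by 30 min of MMS and by 60 min of H2O2. Its log2 signals were 5.83, 2.93, 2.75, 2.67, 2.26 and 2.38 from 0 to 180 min of MMS. They were 5.28, 6.07, 3.12, 3.01, 2.74 and 2.99 from 0 to 180 min of H2O2. At 30 min the MMS array was already near the low level it held afterwards, and the H2O2 array lay above both time 0 arrays. From 60 min on, every array of both courses lay between 2.26 and 3.12, close to the lowest signal of any gene on these arrays, 2.0.

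SFG1 was lower at the first stressed sample of either course. Its log2 signals were 9.34, 6.87, 5.57, 5.10, 5.46 and 5.42 from 0 to 180 min of MMS. They were 9.30, 7.58, 6.72, 6.25, 6.72 and 7.37 from 0 to 180 min of H2O2. All 10 stressed arrays lay below both time 0 arrays. In single windows the same held for 38.3% to 41.7% of all genes, and the share over all 10 arrays was not counted. The lowest array of each course was that at 100 min, and after H2O2 the 140 and 180 min arrays were each higher than the one before.

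Set against time 0, the late peroxide window was 7.54-fold lower for AQY2 (log2 -2.91 ± 0.51, SE of the limma fit) and lower by a log2 difference of -2.64 ± 0.64 for BSC1. No fold is given for BSC1, since its low signals lie near the lowest of any gene. It was 5.80-fold lower for SFG1 (-2.54 ± 0.41) and 5.33-fold lower for YLL053C (-2.42 ± 0.47). Mean log2 signals were 7.01 ± 0.18 late after H2O2 and 9.93 ± 0.10 at time 0 for AQY2 (SD, n = 3 and 2). They were 8.11 ± 0.07 and 10.53 ± 0.10 for YLL053C, 2.91 ± 0.15 and 5.55 ± 0.39 for BSC1, and 6.78 ± 0.56 and 9.32 ± 0.03 for SFG1, in the same order of groups. These are the 4 lowest differences of the 5449 genes. The next were YGR035C, of unknown function (-2.15), FRE4, a ferric reductase (-2.14), SPS4, a sporulation gene (-2.11), and PRM7, a pheromone-regulated membrane protein (-1.91). For all 4 genes the late peroxide arrays lay wholly below time 0, which also held for 39.6% of all genes. This is a description, since the 4 genes were picked for that fall.

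The other windows share the time 0 arrays with that choice, so they too are described without a test. In the late MMS window SFG1 was 15.9-fold below time 0 (log2 -3.99 ± 0.41), AQY2 4.23-fold (-2.08 ± 0.51) and YLL053C 3.17-fold (-1.66 ± 0.47), and BSC1 differed by -3.11 ± 0.64. The late MMS arrays of all 4 genes lay below both time 0 arrays, as did those of 39.1% of all genes. In the early MMS window SFG1 (-3.09 ± 0.45) had the lowest difference from time 0 of all genes and BSC1 (-2.71 ± 0.70) the seventh lowest. AQY2 (-0.58 ± 0.55) and YLL053C (-0.22 ± 0.51) overlapped time 0 there, so the arrays of 2 of the 4 genes lay below time 0, against 38.3% of all genes. Without the 60 min MMS array AQY2 was at 0.20 and YLL053C at 0.44, and without the 30 min array they were at -1.35 and -0.88. In the early H2O2 window the differences were -2.17 ± 0.45 for SFG1, -2.01 ± 0.55 for AQY2, -1.67 ± 0.51 for YLL053C and -0.96 ± 0.70 for BSC1. Without the 60 min H2O2 array they were -1.12 for AQY2, -0.80 for YLL053C and 0.52 for BSC1, and without the 30 min array -2.89, -2.54 and -2.43 for the same genes. The arrays of 3 of the 4 genes lay below time 0, against 41.7% of all genes, and those of BSC1 overlapped it.

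**Figure D2:**
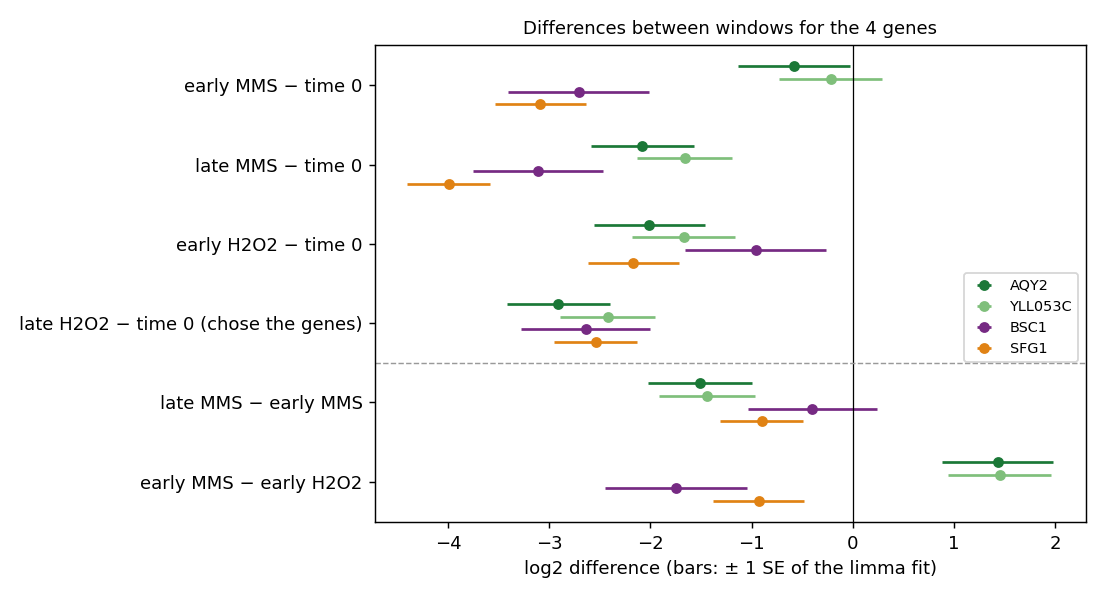
Log2 difference between windows (horizontal axis) for each gene, with bars of 1 SE from the limma fit of all 12 arrays. Differences above the dashed line use the time 0 arrays that helped choose the genes, and the tested rows are below it. AQY2 and YLL053C lie to the right of 0 and BSC1 and SFG1 to the left for early MMS against early H2O2.

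By the order of group means, AQY2 was lowest late after H2O2 (7.01), then late after MMS (7.85), early after H2O2 (7.92), early after MMS (9.35) and at time 0 (9.93). Only the step between the late H2O2 and late MMS windows had arrays that did not overlap. The late H2O2 and time 0 arrays chose the genes, so their places in these orders are a description without a test. YLL053C ran in the order late H2O2 (8.11), early H2O2 (8.86), late MMS (8.87), early MMS (10.31) and time 0 (10.53). Its only step without overlap was that between late and early MMS. BSC1 was lowest late after MMS (2.44), followed by early MMS (2.84), late H2O2 (2.91), early H2O2 (4.59) and time 0 (5.55). For BSC1 the late MMS and early MMS arrays did not overlap, nor did the late H2O2 and early H2O2 arrays. SFG1 ran in the order late MMS (5.32), early MMS (6.22), late H2O2 (6.78), early H2O2 (7.15) and time 0 (9.32), without overlap at the first and the last step. Late MMS arrays lay below early MMS arrays for 29% of all genes, and early H2O2 arrays below time 0 for 41.7%. For the other steps without overlap the share of all genes was not counted.

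The late MMS window was tested against the early MMS window. The means of these windows use none of the arrays that chose the genes. The spread behind each SE, interval and p-value comes from the joint fit of all arrays, including those that chose the genes. AQY2 and YLL053C were lower in the late window, though within it both were higher at 180 min (8.08 and 9.15) than at 100 min (7.67 and 8.73). AQY2 averaged 7.85 ± 0.21 in the late and 9.35 ± 1.10 in the early window (SD, n = 3 and 2), a log2 difference of -1.51 ± 0.51 (limma, Benjamini-Hochberg adjusted p = 0.0335). YLL053C averaged 8.87 ± 0.24 in the late and 10.31 ± 0.93 in the early window, a difference of -1.44 ± 0.47 (limma adjusted p = 0.0297). SFG1 averaged 5.32 ± 0.20 in the late and 6.22 ± 0.92 in the early window and did not pass (-0.90 ± 0.41, limma adjusted p = 0.0969, 95% interval -1.82 to 0.03). BSC1 averaged 2.44 ± 0.21 in the late and 2.84 ± 0.12 in the early window and did not pass (-0.40 ± 0.64, limma adjusted p = 0.622, interval -1.83 to 1.02). Thus 2 of the 4 genes passed, in a comparison in which 48.6% of all genes were called, 27.1% higher and 21.5% lower, and the late arrays lay below the early ones for all 4, as for 29% of all genes. Without the 30 min MMS array, which leaves 1 early array with a spread taken from the other groups, the differences were -0.73 for AQY2 and -0.79 for YLL053C, and neither passed (limma adjusted p = 0.344 and 0.3). Neither passed without the 100 min array (limma adjusted p = 0.076 for AQY2 and 0.0667 for YLL053C) or the 140 min array (0.0802 and 0.0786), and AQY2 did not pass without the 180 min array (0.0567), while SFG1 did without the 60 min array (-1.55, 0.0119).

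Early MMS against early H2O2 asks whether the stresses differ in the first hour, again with means from arrays that played no part in the choice. The spread again comes from the joint fit of all arrays, including those that chose the genes. The aquaporin pair was higher and BSC1 and SFG1 were lower after MMS, but these differences did not pass. AQY2 averaged 9.35 ± 1.10 after MMS and 7.92 ± 1.25 after H2O2 (SD, n = 2 each), a log2 difference of 1.43 ± 0.55 (limma adjusted p = 0.134, 95% interval 0.19 to 2.67). YLL053C averaged 10.31 ± 0.93 after MMS and 8.86 ± 1.23 after H2O2 (1.45 ± 0.51, limma adjusted p = 0.11, interval 0.3 to 2.6). BSC1 averaged 2.84 ± 0.12 after MMS and 4.59 ± 2.09 after H2O2 (-1.75 ± 0.70, limma adjusted p = 0.143, interval -3.31 to -0.19), with both MMS arrays below both H2O2 arrays, as for 17.1% of all genes. SFG1 averaged 6.22 ± 0.92 after MMS and 7.15 ± 0.61 after H2O2 (-0.93 ± 0.45, limma adjusted p = 0.227, interval -1.94 to 0.09). By limma 0 of the 4 genes passed, against 8.13% of all genes (5.74% higher and 2.39% lower), and 3 had an unadjusted p under 0.05. Over all genes the calls split into 313 higher and 130 lower, but into 167 higher and 195 lower with arrays centred on their medians.

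Each of these windows holds a 30 min and a 60 min array, so its spread includes the difference between those times. The early MMS arrays also serve in the test of late against early MMS, so the tests are not independent. With sampling time as a block, so that MMS and H2O2 are compared at the same minute, the differences of AQY2 (1.43 ± 0.18, limma adjusted p = 0.00639), YLL053C (1.45 ± 0.17, 0.00605) and SFG1 (-0.93 ± 0.20, 0.024) passed and that of BSC1 did not. The number of genes called was 1000 with this block and 443 without it. Leaving out an early array leaves 1 array in its window, whose spread is then taken from the other groups. Leaving out the 30 min H2O2 array gave 2.31 for AQY2 and 2.32 for YLL053C (limma adjusted p = 0.0302 and 0.0197) and -0.28 for BSC1. Without the 60 min H2O2 array BSC1 was at -3.23 (0.000576), AQY2 at 0.55 and YLL053C at 0.58. SFG1 passed without the 30 min MMS array (-1.58, 0.0404).

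At single times, MMS minus H2O2 was 1.32 for AQY2 and 1.24 for YLL053C at 30 min, and 1.54 and 1.66 at 60 min. For BSC1 it was -3.14 at 30 min and -0.36 at 60 min, by when the H2O2 array had reached the low level too. For SFG1 the gap was -0.71 at 30 min, -1.15 at 60 and 100 min, -1.27 at 140 min and -1.95 at 180 min. These gaps are differences between 1 array and 1 array. At 0 min they were -0.15 for AQY2, -0.14 for YLL053C, 0.55 for BSC1 and 0.04 for SFG1.

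**Figure D3:**
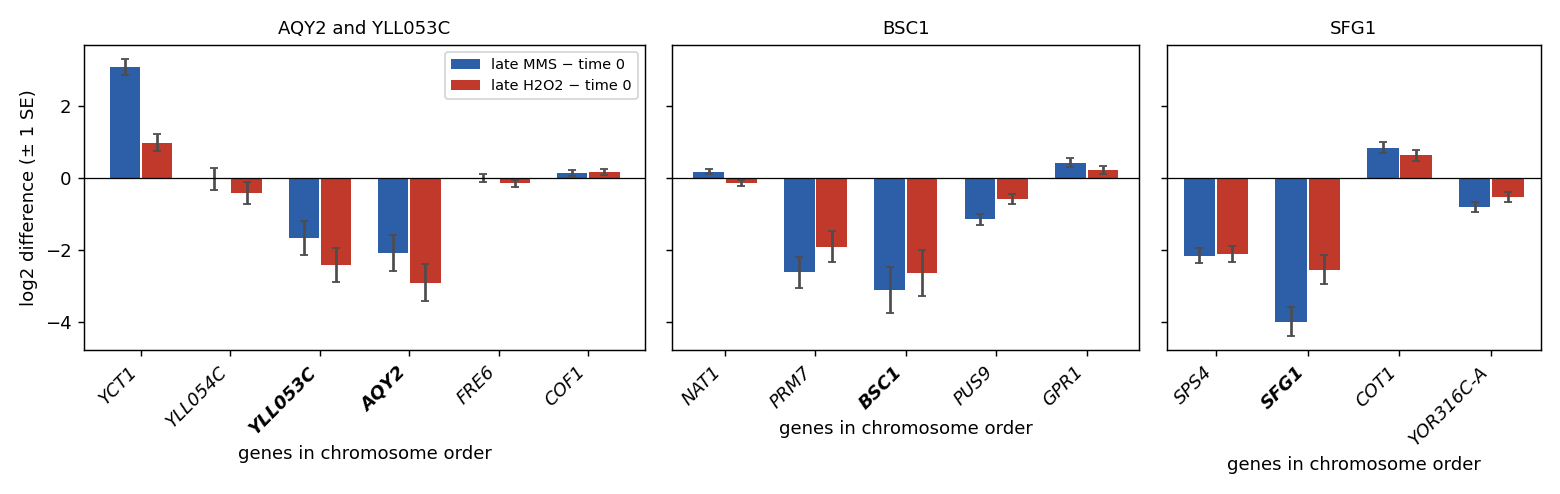
Log2 difference from time 0 in the late MMS (blue) and late H2O2 (red) windows for the 4 genes, in bold, and the measured genes beside them in chromosome order, with bars of 1 SE. Low values are shared by YLL053C and AQY2, by PRM7 and BSC1, and by SPS4 and SFG1, while the other neighbours lie nearer to 0 or above it.

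Of the 12 annotated genes within 2 places of the 4 genes on their chromosomes, 11 were measured. Their comparisons with time 0 share the time 0 arrays that helped choose the 4 genes. Late after MMS 40.3% of all genes were called higher and 34.6% lower than time 0. Late after H2O2 9.12% were called higher and 6.28% lower. That late H2O2 count of 839 genes ran from 6 to 1271 when 1 array was left out. Between the early and late MMS windows 21.5% of all genes were called lower. Around the aquaporin pair the genes on either side did not pass in either late window. YLL054C, a putative zinc cluster protein, and FRE6, a vacuolar ferric reductase, differed from time 0 by -0.02 ± 0.30 and 0.01 ± 0.11 late after MMS (limma adjusted p = 0.951 and 0.937). Late after H2O2 they were at -0.41 ± 0.30 and -0.15 ± 0.11 (limma adjusted p = 0.356 and 0.358). COF1, cofilin, was at 0.15 ± 0.08 late after MMS and 0.17 ± 0.08 late after H2O2. YCT1, a cysteine transporter, rose by 3.09 ± 0.23 late after MMS (limma adjusted p = 4.1e-05) and by 0.98 ± 0.23 late after H2O2 (0.0269).

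Beside BSC1, PRM7 was low in the same arrays. Its log2 signals were 8.56, 7.44, 6.24, 6.15, 5.98 and 5.84 from 0 to 180 min of MMS and 8.66, 8.68, 7.06, 6.76, 6.77 and 6.54 from 0 to 180 min of H2O2. Its 30 min array was at the time 0 level after H2O2 and below it after MMS, while BSC1 at 30 min lay above both time 0 arrays after H2O2 and below them after MMS. PRM7 fell by 2.61 ± 0.43 late after MMS against time 0 (limma adjusted p = 0.000395). PUS9, a mitochondrial tRNA pseudouridine synthase on the other side of BSC1, fell by 1.15 ± 0.14 late after MMS (8.42e-05) and by 0.57 ± 0.14 late after H2O2 (0.0276). The outer neighbours were NAT1, an acetyltransferase subunit, at 0.18 ± 0.08 late after MMS (0.0763), and GPR1, a glucose receptor, which rose by 0.43 ± 0.12 (0.00675).

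Next but one to SFG1, SPS4 had log2 signals of 5.24, 3.99, 3.52, 3.45, 3.12 and 2.87 from 0 to 180 min of MMS and 5.37, 3.54, 3.21, 3.15, 3.0 and 3.46 from 0 to 180 min of H2O2. Every stressed array of SPS4 thus lay below both time 0 arrays, as for SFG1. In single windows the same held for 38.3% to 41.7% of all genes. The stressed signals of SPS4, 2.87 to 3.99, lie near the lowest of any gene, 2.0. SPS4 fell by 2.16 ± 0.21 late after MMS (limma adjusted p = 4.67e-05) and by 0.61 ± 0.21 between the early and late MMS windows (0.0371). COT1, a vacuolar metal transporter on the other side, rose by 0.84 ± 0.15 late after MMS (0.000741) and by 0.63 ± 0.15 late after H2O2 (0.0276). The short open reading frame YOR316C-A, of unknown function, fell by 0.80 ± 0.14 late after MMS (0.000546) and by 0.52 ± 0.14 late after H2O2 (0.0364).

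The likeness of profiles was measured as Pearson's r of log2 signal over the 12 arrays, which share time 0 and the sampling times, and is a description. AQY2 and YLL053C were each other's closest match among all genes (r = 0.994). The next for AQY2 were ZRG17, a zinc transporter of the endoplasmic reticulum (0.938), and BTS1, an isoprenoid synthase (0.923), and for YLL053C the spliceosome core protein SMD1 (0.942) and ZRG17 (0.940). Their late H2O2 differences from time 0 were -0.36 for ZRG17, -0.53 for BTS1 and -0.55 for SMD1. That these are smaller than those of the pair is a description, since the pair was picked for its fall. BSC1 was closest to PRM7 (0.942), then RGS2, a regulator of G protein signalling (0.913), and KSS1, a kinase of the filamentation pathway (0.906). Its r rests on 3 arrays of high BSC1, the 2 at 0 min and the 30 min H2O2 array, set apart from 9 low ones. SFG1 was closest to NSL1, a kinetochore protein (0.978), BER1 (0.968) and ARP4, an actin-related chromatin protein (0.964), and 101 genes exceeded 0.9 with it, against 7 for AQY2, 6 for YLL053C and 3 for BSC1. Across the aquaporin pair and the other genes r was 0.497 to 0.590, and between BSC1 and SFG1 it was 0.837. The genes closest to the mean of all 4 were YOR072W-B (0.931), the flocculin gene FLO11 (0.92), PRM7 (0.911), EAF5, a subunit of the NuA4 acetyltransferase (0.908), and SPS4 (0.9).

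**Figure D4:**
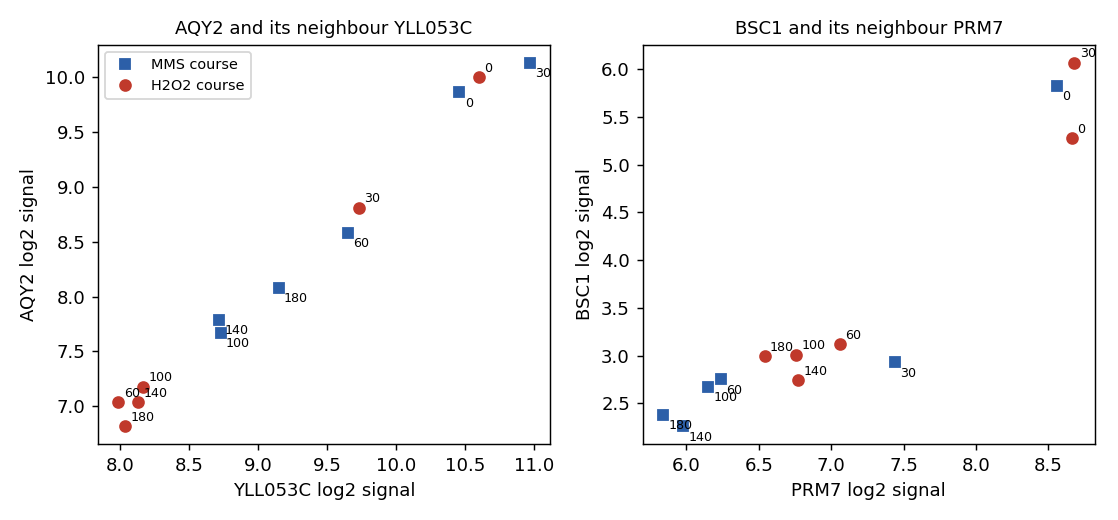
Log2 signal of AQY2 against YLL053C (left) and of BSC1 against PRM7 (right), with 1 point per array, blue squares for MMS and red circles for H2O2, labelled with the time in min. The aquaporin pair runs along a line over its whole range, while BSC1 forms a high cluster of 3 arrays and a low cluster of 9.

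Other genes of the same kinds were counted from lists that leave the 4 genes out. Of the other water and glycerol channels, FPS1, the glycerol exporter, fell in the late MMS window (-0.39 ± 0.09, limma adjusted p = 0.00226) and the late H2O2 window (-0.38 ± 0.09, 0.0226). AQY1, the spore aquaporin, rose early after H2O2 (0.77 ± 0.20, 0.0182) and early after MMS (0.65 ± 0.20, 0.035), where 14.7% and 18.7% of all genes were called higher in these windows. Late after H2O2 it was at 0.21 ± 0.18 (0.43). The signals of AQY1 were low, between 4.51 and 5.61 on all 12 arrays, below the SFG1 mean of 6.81. They were highest at 30 min, at 5.55 after H2O2 and 5.61 after MMS, and were 5.24 and 4.96 at 60 min. AQY1 fell between the early and late MMS windows (-0.68 ± 0.18, 0.015), where 21.5% of all genes were called lower. That is the direction of AQY2 and YLL053C there, but the levels reached differed. Late after MMS AQY1 was at -0.02 ± 0.18 against time 0 (0.91), and AQY2 and YLL053C were at -2.08 and -1.66.

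Late after MMS 6 of 12 flocculins and related surface proteins fell and 0 rose, also at an unadjusted limma p under 0.05 (median log2 -0.57), where 34.6% of all genes were called lower, 40.3% higher and the median of all genes was 0.09. They were PRM7, the mating agglutinin gene AGA1 (-1.53), FIG2, a mating adhesin gene (-1.82), the anaerobic mannoprotein gene DAN1 (-1.78), FLO11 (-1.27 ± 0.28, limma adjusted p = 0.00227) and FLO1 (-0.62). Late after H2O2 2 fell, PRM7 and FLO11 (-1.11 ± 0.28, 0.03), and TIR3 rose (0.54), with a median of -0.22, where 6.28% of all genes were called lower and 9.12% higher. FLO11 had log2 signals of 8.17, 8.21, 7.41, 7.16, 7.01 and 6.71 from 0 to 180 min of MMS. They were 8.29, 8.17, 7.31, 7.07, 7.31 and 6.97 from 0 to 180 min of H2O2. In both courses FLO11 stayed near its 0 min level at 30 min and was lower from 60 min on. Between the early and late MMS windows FLO11 fell (-0.86 ± 0.28, 0.0314), as did 6 of the 12 in all, while TIR2 rose (median -0.63), where 21.5% of all genes were called lower and 27.1% higher. The late H2O2 calls depend on the arrays kept. Over all genes 839 (15.4%) were called late after H2O2, but 9 without the 0 min array of the H2O2 course and 6 without that of the MMS course. They were 232 without the 100 min and 138 without the 140 min H2O2 array, 516 without the 140 min MMS array and 1271 without either early MMS array.

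The regulators of filamentous growth and FLO11 went both ways. Late after MMS 9 of 22 rose and 7 fell (median 0.44), near the shares of all genes (40.3% higher and 34.6% lower). XBP1, a stress-induced repressor, rose by 4.20 ± 0.36 (limma adjusted p = 4.1e-05) and NRG1, a glucose-linked repressor of FLO11, by 2.43 ± 0.22 (4.15e-05). HMS2 (-2.22 ± 0.44, 0.00115) and TEC1 (-1.97 ± 0.32, 0.000362), a partner of the filamentation factor Ste12, fell, as did STE12 itself (-1.51 ± 0.16, 5.2e-05) and SFL1, a repressor of FLO11 (-1.48 ± 0.14, 4.3e-05). Late after H2O2 XBP1 (1.52 ± 0.36, 0.0252) and TPK2, a protein kinase A subunit (0.70 ± 0.16, 0.0246), rose, and SFL1 (-0.63 ± 0.14, 0.0215) and STE12 (-0.55 ± 0.16, 0.0414) fell (median -0.07), where 9.12% of all genes were called higher and 6.28% lower. PHD1, the factor that may act with Sfg1, was at 0.49 ± 0.82 late after MMS (0.602) and 0.35 ± 0.82 late after H2O2 (0.787).

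SFG1 is counted among the genes transcribed in the G2/M phase of the cell cycle, known as the CLB2 cluster. Of 19 other genes of that cluster 16 fell late after MMS and 0 rose (median -1.70), where 34.6% of all genes were called lower, with CLB2, the mitotic cyclin, at -3.49, YHP1 at -2.69, CHS2, a septum chitin synthase, at -2.60 and CLB1 at -2.27. Late after H2O2 2 of 19 fell, CLB2 (-1.16) and HST3 (-0.92), and 0 rose (median -0.64), where 6.28% of all genes were called lower. At an unadjusted limma p under 0.05, 17 were lower late after MMS and 11 late after H2O2, and 0 were higher in either window. Early after H2O2 11 of 19 fell and 0 rose (16 and 0 at an unadjusted limma p under 0.05, median -0.91). Early after MMS 6 fell and 0 rose (8 and 1 unadjusted, median -0.58). The median of all genes was -0.04 early after H2O2 and 0.02 early after MMS. The share of all genes called lower in these early windows is not given here. None of these 19 genes had as low a difference as SFG1 in either late window, at -3.99 after MMS and -2.54 after H2O2, which is a description since SFG1 was picked for its fall. Between the early and late MMS windows 15 of 19 fell and 0 rose (17 and 0 at an unadjusted limma p under 0.05, median -1.12), where 21.5% of all genes were called lower, and SFG1 (-0.90) did not pass there.

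**Figure D5:**
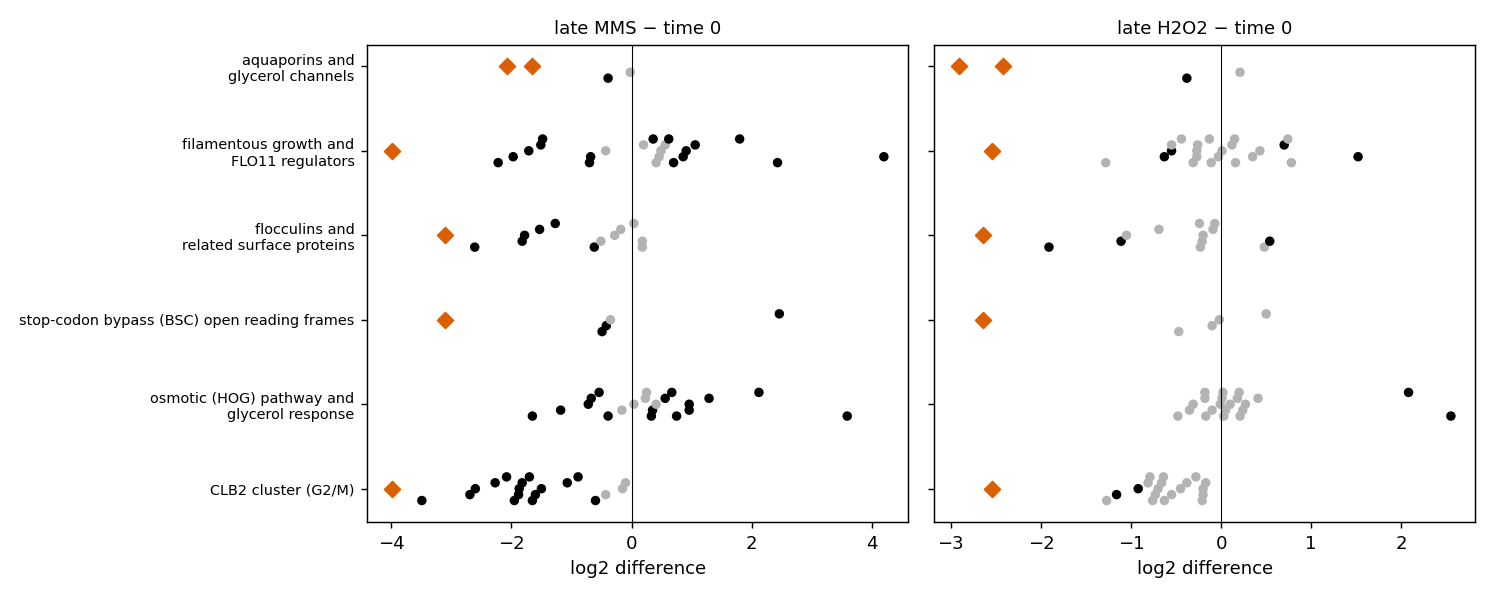
Log2 difference from time 0 late after MMS (left) and late after H2O2 (right) for each gene of the related lists (rows), black where the limma adjusted p is under 0.05 and grey otherwise, with the picked genes of a list as orange diamonds. The diamonds of SFG1 lie left of every other CLB2 cluster gene in both panels, which is a description since SFG1 was picked for its late H2O2 fall.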

How the data were processed

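Total RNA from 12 samples of yeast cultures was hybridised to 1-colour Affymetrix arrays as biotin-labelled cRNA, as the labels describe. The authors deposited log2 signals per probe set, and RMA is the method that the submitters' processing notes name (its version is not given in the sources used here). Their array medians lay between 9.01 and 9.15 and no further scaling was applied. Of 5900 probe sets 184 were controls, 5498 had 1 gene in the array annotation and 218 had none, and the brightest probe set was kept for 47 genes with several, which left 5449 genes. All IDs matched the RefSeq gene table of assembly R64, which updated 12 symbols and gave the order of neighbouring genes. No coordinates are printed since no build is named for the array.

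Group means of the 5 groups were estimated jointly by limma 3.58.1 (R 4.3.3, 7 residual and 2.71 prior degrees of freedom), with Benjamini-Hochberg adjustment over all genes and a threshold of 0.05. Arrays of different sampling times stand in for replicates. On simulated data with the same 5449 genes, 88.1% of log2 changes of 1 were recovered for late against early MMS (5 false calls of 146) and 88.1% for early MMS against early H2O2 (3 of 142). Of changes of 0.5, 23.9% and 22.4% were recovered. The simulated noise was independent between arrays, without a trend over sampling times, and fewer genes changed than were called in the data. These rates average over genes and do not give the power for the 4 genes.

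The members and the lists were chosen with earlier results of these data known. The text names the 4 genes, the next 4 falls, up to 3 closest profiles per gene and 5 for their mean, chromosome neighbours, and up to 4 called genes per list and comparison. FLO1 and PHD1 were named beyond that after their values were seen. The lists hold water and glycerol channels, filamentation regulators, flocculins, stop-codon bypass frames, osmotic pathway genes and the CLB2 cluster, and 1 further list is not reported here. Alternatives were other scalings, filters, windows, baselines, moderation, a time block and leaving out each array. Promoter motifs and protein comparisons were not analysed here. The few arrays limit precision.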

Additional observations from a re-analysis of the deposited data

How the results depend on the processing

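Directions of the 4 genes were kept under median centring, quantile normalization, the mean of probe sets, moderation with a trend and the own 0 min array as baseline. BSC1 and SFG1 had no value with the dimmest 25% of genes left out. With an early window of 30 min only, each early group is a single array, assumed to vary like the other groups. Late against early MMS was -1.49 for SFG1, which then passed (limma adjusted p = 0.024), with 1602 genes called against 2648. Early MMS against early H2O2 was then -3.14 for BSC1, which passed (0.00395), with 6 genes called against 443. That window also turned the sign against time 0 for BSC1 after H2O2 (0.52) and, after MMS, for AQY2 (0.20) and YLL053C (0.44), since only the 30 min array was left in it. With an early window of 30 to 100 min, late against early MMS was -0.86 for AQY2 and -0.85 for YLL053C, which no longer passed (0.364 and 0.34), with 607 genes called, and 1021 were called for early MMS against early H2O2. With sampling time as a block the last comparison called 1000 genes and passed AQY2 (1.43), YLL053C (1.45) and SFG1 (-0.93).

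Leaving out 1 array at a time, and assuming that a lone remaining array varies like the other groups, gave these ranges. Late against early MMS ran from -2.28 to -0.73 for AQY2, -2.10 to -0.79 for YLL053C, -0.52 to -0.31 for BSC1 and -1.55 to -0.25 for SFG1, with 620 (without the 30 min MMS array) to 3054 genes called. Early MMS against early H2O2 ran from 0.55 to 2.31 for AQY2, 0.58 to 2.32 for YLL053C, -3.23 to -0.28 for BSC1 and -1.58 to -0.27 for SFG1, with 148 (without the 60 min H2O2 array) to 890 genes called (without the 30 min MMS array), and 184 to 244 without the 60 or 140 min MMS, the 140 min H2O2 or either 0 min array. Against time 0, early H2O2 ran from -2.43 to 0.52 for BSC1, and early MMS from -1.35 to 0.20 for AQY2 and -0.88 to 0.44 for YLL053C. Late H2O2 against time 0 ran from -3.00 to -2.82 for AQY2, -2.48 to -2.35 for YLL053C, -2.91 to -2.36 for BSC1 and -2.83 to -2.27 for SFG1.

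Genes called against time 0 were 839 late after H2O2 (6 with the own 0 min array, 22 with a late window of 140 and 180 min, 6 to 1271 leaving out 1 array). They were 1834 early after H2O2 (600, 261 at 30 min only, 1122 with 30 to 100 min, 585 to 2235) and 1802 early after MMS (351, 50 at 30 min only, 351 to 2664). Late after MMS they were 4082 (3548 to 4126). The labels give no replicate numbers, and the only pairing they allow between the courses is by sampling time, which is the block above. No paired analysis was possible for late against early MMS because these windows share no sampling time.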

Other observations

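The osmotic (HOG) pathway adjusts cell water and glycerol. Late after MMS 10 of 21 of its genes rose and 6 fell (median log2 0.33), where 40.3% of all genes were called higher and 34.6% lower. GPD1, the enzyme that commits sugar carbon to glycerol, rose by 3.59 ± 0.38 (limma adjusted p = 5.36e-05), the pathway kinase gene STE11 by 2.12 and the glycerol phosphatase gene GPP2 by 1.29, and GPP1, its isoenzyme, fell by 1.65. Late after H2O2 2 of 21 rose, GPD1 (2.55) and GPP2 (2.08), and 0 fell (median 0.03), where 9.12% of all genes were called higher, with 3 lower at an unadjusted limma p under 0.05. Between the early and late MMS windows 4 rose and 3 fell, where 27.1% of all genes were called higher, among them GPP2 (1.44), STE11 (1.29) and the phosphorelay gene YPD1 (-0.98).

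Of the other 4 open reading frames named for stop-codon bypass like BSC1, 0 were called late after H2O2 by limma in either direction (median log2 -0.06). Also 0 had an unadjusted p under 0.05. Of all genes 9.12% were called higher and 6.28% lower there. Late after MMS BSC5 rose by 2.46, and BSC6 (-0.49) and TLD1, formerly BSC2 (-0.42), fell, where 40.3% of all genes were called higher and 34.6% lower. BSC5 was higher after MMS than after H2O2 in the early windows (1.57), as were 5.74% of all genes. The difference of BSC1 there was -1.75 and did not pass. YGR035C, the first gene outside the 4, had log2 signals of 8.94, 7.09, 5.05, 4.14, 4.19 and 4.43 from 0 to 180 min of MMS and 9.09, 7.65, 5.69, 6.20, 6.90 and 7.48 from 0 to 180 min of H2O2. FRE4, the next, had 7.57, 8.03, 6.57, 5.40, 5.21 and 5.32 from 0 to 180 min of MMS and 7.56, 6.02, 5.05, 5.0, 5.26 and 6.01 from 0 to 180 min of H2O2. Like AQY2 and YLL053C, FRE4 was above time 0 at 30 min of MMS and below it at 30 min of H2O2. ACT1, actin, lay between 13.06 and 13.23 on all 12 arrays.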
